A study of Mus musculus with 24 samples.

Results

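Complement receptors and complement regulators of mouse B cells were followed through their 6 genes in an RNA-seq count table: Cr2, Cr1l, Cd55, Cd59a, Susd4 and C3. The genes were chosen by name, as a receptor, 4 regulators anchored in the cell membrane and the component C3. All 6 were found among the 11140 genes listed in the table and were tested. The RNA came from B lymphoma cells purified from spleens of C57BL/6 mice, and every mouse of both groups carried the Bcl6Tg/+ transgene. The T cell sufficient group (12 lymphomas) has this genotype alone, and the T cell deficient group (11 lymphomas) is Bcl6Tg/+CD3Epsilon-/-, so that its mice also lack a chain of the T cell receptor complex. The study asked how B lymphomas that arose with and without T cell surveillance differ. The labels give neither age nor sex, and they do not name the promoter that drives the transgene. Each group is thus a set of tumours that grew in different mice, not a cell line, and p-values measure the spread between these tumours.

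Complement is a cascade of plasma proteins in which C3 is cleaved and its fragments are deposited on a target. B cells read these fragments with complement receptors, and the receptor encoded by Cr2 takes part in a coreceptor that lowers the threshold for signalling by the B cell receptor. Host cells protect themselves with membrane regulators that take C3 convertases apart, help to inactivate C3b and C4b, or block the membrane attack complex.

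Sequencing was split over 2 runs, named as batches in the labels, with 7 sufficient and 5 deficient libraries in run 1 and 5 and 6 in run 2. Libraries held 7.58 to 30.61 M counts over the listed genes (M, mega), so that 3 counts were worth 0.0980 to 0.396 CPM. Levels below are CPM, counts scaled to the library total, after correction of that total by TMM. Cd3e, the targeted gene, was at 0 to 2.46 CPM in the sufficient and at 0.721 to 5.77 CPM in the deficient libraries, and the gene-level counts do not show whether reads fell in the deleted part, so it does not check the genotype labels. T cell sufficient lymphomas 9, 10 and 11, all from run 2, held both Xist and Y-linked transcripts over 20 CPM, and results are given with and without them, a limit chosen after seeing the data. At the planned limit of 1 CPM, 12 libraries (8 sufficient, 4 deficient) were left out. All 8 B cell markers listed had a row and summed to 5186 to 10721 CPM in sufficient and 3735 to 8140 CPM in deficient libraries. Of these 8, 4 passed as lower in the deficient group by the edgeR test given below, beside 11.7% of all genes. T cell markers (6 of 8 with a row) summed to 101 to 592 CPM (median 377) in sufficient and 112 to 767 CPM (median 447) in deficient libraries. Of these 6, 0 passed by that test, beside 22.2% of all genes. Markers of monocytes and macrophages (14 of 16 with a row) summed to 202 to 2144 CPM and to 88.1 to 443 CPM, and those of stromal and follicular dendritic cells (3 of 10 with a row, none of them Cxcl13 or Madcam1) to 8.92 to 59.6 CPM and 0.481 to 9.46 CPM. In these bulk samples, fewer cells of a type and less RNA per cell cannot be told apart.

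Of the 6 genes, Cr2, Cr1l, Cd55 and Susd4 lie on chromosome 1, at 195136811 to 195176716 (minus strand), 195097382 to 195131586 (minus), 130439027 to 130462744 (minus) and 182763860 to 182896591 (plus) in GRCm38 with the GENCODE M21 annotation. Cd59a lies on chromosome 2 at 104095801 to 104115354 (plus strand) and C3 on chromosome 17 at 57203970 to 57228136 (minus). Cr1l and Cr2 are neighbours with 5.22 kb between them, and Cd46, another regulator gene, not analysed here, lies 5.13 kb from Cr1l. Cd55 and Cd59a each have a near copy next to them, Cd55b at 16.0 kb and Cd59b at 4.61 kb. Of the 50-base stretches of their transcripts, 8.0% of those of Cd55 also occur in Cd55b, 3.87% of those of Cd59a in Cd59b and 4.34% of those of Cr1l in the annotated genes Crry-ps and Gm49375. No source used here says how the authors counted reads from such stretches, so the values of these 3 genes are uncertain to that extent, while Cr2, Susd4 and C3 shared no such stretch. The gene-level counts of Cr2 do not separate CR1 and CR2, the receptors that mice make from this gene by splicing.

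The sequences upstream show how unlike the promoters of these genes are. RefSeq windows of 300 bases (250 before to 50 after a transcription start, GRCm38.p6) were found for all 6 genes, with a pair of starts for Susd4. Those of the most variable gene (Cr2), of the 2 genes with the larger falls (Cd55, Cd59a) and of the gene that rose (Susd4, upstream start) are printed on the gene's strand, 5′ to 3′. In Cr2 (chr1:195176670-195176969, minus strand), capitals mark GTGGGAA, the core bound by RBPJ, the DNA-binding factor of Notch signalling. In Cd55 (chr1:130462695-130462994, minus), Cd59a (chr2:104095551-104095850, plus) and Susd4 (chr1:182763966-182764265, plus), capitals mark CG dinucleotides.
Cr2: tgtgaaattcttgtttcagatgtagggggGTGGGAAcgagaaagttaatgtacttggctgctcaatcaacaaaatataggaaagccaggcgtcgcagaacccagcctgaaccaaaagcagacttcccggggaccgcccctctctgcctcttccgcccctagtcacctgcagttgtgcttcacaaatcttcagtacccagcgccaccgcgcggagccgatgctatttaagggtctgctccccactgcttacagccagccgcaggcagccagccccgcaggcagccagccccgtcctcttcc
Cd55: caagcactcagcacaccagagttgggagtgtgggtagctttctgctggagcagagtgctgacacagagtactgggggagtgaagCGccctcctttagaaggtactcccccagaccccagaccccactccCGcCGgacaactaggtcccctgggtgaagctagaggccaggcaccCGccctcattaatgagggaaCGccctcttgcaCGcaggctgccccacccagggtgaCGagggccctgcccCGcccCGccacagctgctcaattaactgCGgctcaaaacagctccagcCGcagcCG
Cd59a: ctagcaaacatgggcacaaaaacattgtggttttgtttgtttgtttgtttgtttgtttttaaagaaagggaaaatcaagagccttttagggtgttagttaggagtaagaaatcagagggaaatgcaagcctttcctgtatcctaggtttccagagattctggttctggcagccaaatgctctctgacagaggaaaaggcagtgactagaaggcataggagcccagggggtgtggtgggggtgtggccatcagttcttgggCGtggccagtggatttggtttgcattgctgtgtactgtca
Susd4: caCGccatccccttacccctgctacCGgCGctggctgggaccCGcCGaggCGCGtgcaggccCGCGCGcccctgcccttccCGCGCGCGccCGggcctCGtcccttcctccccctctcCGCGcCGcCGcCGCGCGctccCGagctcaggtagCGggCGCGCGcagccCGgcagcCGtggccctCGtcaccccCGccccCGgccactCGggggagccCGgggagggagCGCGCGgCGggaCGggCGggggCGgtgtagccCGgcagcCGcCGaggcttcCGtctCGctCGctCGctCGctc

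The upstream Susd4 window was 81.3% G and C with 50 CG dinucleotides, and its G and C content was above that of 99.3% of the 32841 RefSeq promoter windows of the same length. The Cd59a window held 1 CG dinucleotide at 45.7% G and C, that of Cd55 held 12 at 63.3%, and that of Cr2 held 14 at 57.3%. The medians over all windows were 7 CG dinucleotides and 52.7% G and C. The windows of Cr1l (6 at 41.3%), C3 (3 at 53.3%) and the downstream start of Susd4 (12 at 63.7%) are not printed. Of the 7 windows, the upstream one of Susd4 held the most CG dinucleotides and that of Cd59a the fewest.

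Short motifs were searched on both strands: GTGGGAA (RBPJ core), CANNTG (E-box), GGGCGG (bound by SP factors), TATAAA (bound by the TBP protein), the letters CCAAT (bound by NF-Y), TTCNNNGAA (bound by STAT factors), ATGCAAAT (octamer, bound by OCT factors), GAGGAAG (PU.1) and GGGANTTCC (kappa B). GTGGGAA occurred in Cr2, with its first base at position -221 from the start, and in the downstream Susd4 window, and 6.38% of all windows hold it. E-boxes occurred 3 times in Cr2, 2 times in Cr1l and 1 time each in Cd55, Cd59a and C3, against 72.3% of all windows with at least 1. The letters of the SP motif occurred in Cr2 (2), Cd55 (2) and both Susd4 windows (3 and 1), against 35.7% of windows. GAGGAAG occurred in the upstream Susd4 window and TATAAA in C3, each held by 13.6%. The TATAAA of C3 lies after the start, with its first base at position 15. The motifs of NF-Y, STAT factors, OCT factors and kappa B occurred in none of the 7 windows, and are held by 37.4%, 8.30%, 1.74% and 1.68% of all windows. A match describes these letters and is no evidence of binding.

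Between the groups, 4 of the 6 genes passed the test and 2 did not. Cd55, Cd59a and Cr1l were lower and Susd4 was higher in T cell deficient lymphomas, while Cr2 and C3 did not pass. Groups were tested with run as a term in edgeR's quasi-likelihood model, adjusted over all 11020 genes by Benjamini-Hochberg, and genes with an adjusted p under 0.05 are called. It called 22.2% of all genes, 11.7% as lower and 10.6% as higher, and the members were chosen with results of these data known. Relabelling of the groups within runs (100000 draws, two-sided permutation test) gave small p-values for the same 4 genes, from 5e-05 to 0.00076, against 0.347 for Cr2 and 0.102 for C3.

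**Figure D1:**
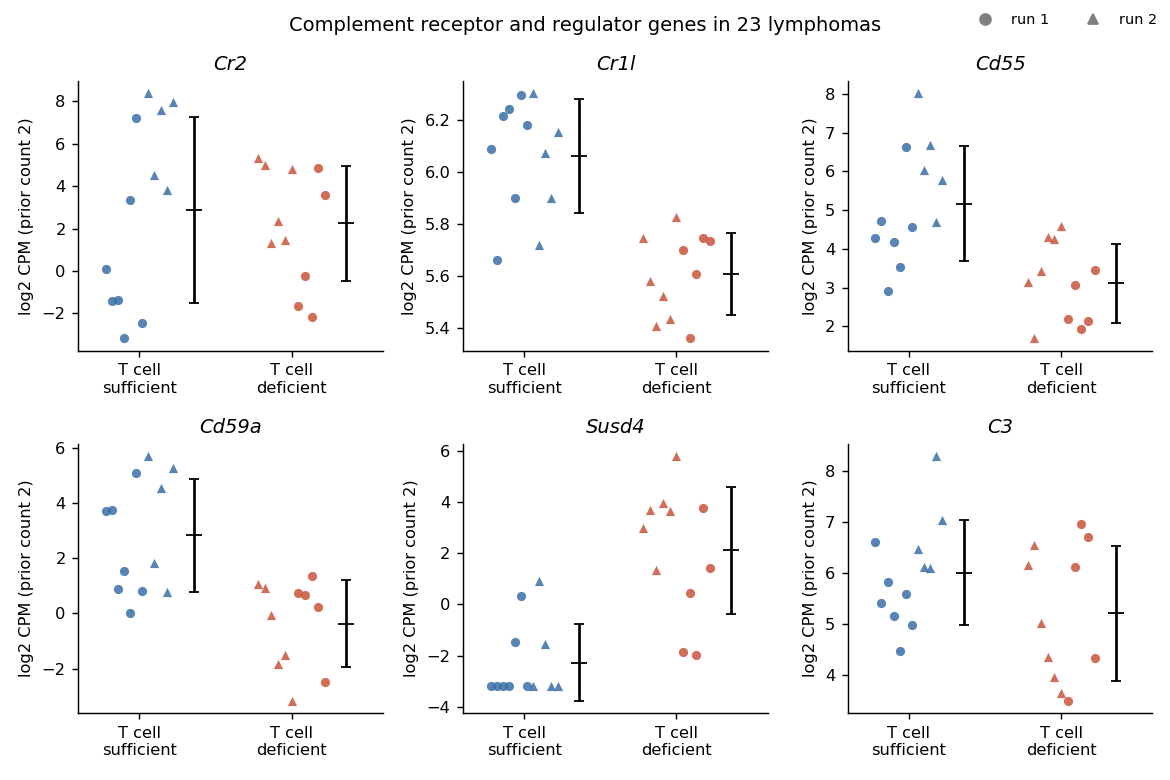
Level of each of the 6 genes in every library, as log2 CPM with a prior count of 2, by group (circles, run 1; triangles, run 2; bars, mean and SD of the group). Cd55 and Cd59a are lower and Susd4 higher in most deficient libraries, Cr1l is lower with little spread, and the Cr2 and C3 groups overlap.

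Cr2, the complement receptor gene, had the widest range of the 6 genes. In T cell sufficient lymphomas it ran from 0 to 332 CPM with a median of 12.0 CPM, and in deficient lymphomas from 0.110 to 40.0 CPM with a median of 4.99 CPM. Sufficient lymphomas 8, 12, 10 and 6, at 332, 246, 193 and 149 CPM, were above every deficient lymphoma, and lymphomas 4 and 7, at 0 and 0.0750 CPM, were below every one. The groups therefore overlapped, and 6 of 11 deficient libraries were below the sufficient median.

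Group means of Cr2 were 80.8 CPM ± 118 (SD, n = 12) versus 13.8 CPM ± 15.2 (SD, n = 11). The groups did not differ by the edgeR test at this threshold (log2 fold change -2.26 ± 1.11 SE, adjusted p = 0.146), and its 95% interval ran from -4.59 to 0.06. The difference in mean log2 CPM was 0.56 in run 1 (exact permutation p = 0.794 over 792 arrangements) and -3.08 in run 2 (exact permutation p = 0.0433 over 462). The edgeR fits of single runs were negative in both, at -1.42 ± 1.90 SE (adjusted p = 0.743) and -3.14 (adjusted p = 0.0621), and their interaction did not pass (adjusted p = 0.891). In run 1, 6 of 7 sufficient libraries were at or below 10.02 CPM and lymphoma 6 stood at 149 CPM. In run 2 all 5 sufficient libraries held at least 13.9 CPM, while the 6 deficient ones ran from 2.35 to 40.0 CPM.

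The call on Cr2 also depended on the tool, and the size of its difference depended on 1 library. Cr2 was called in 0 of the 23 edgeR fits that left out 1 library. With limma-voom the log2 fold change was -2.88 (adjusted p = 0.0180), and the authors' deposited table lists -2.88 with an adjusted p of 0.00531. DESeq2 gave -2.25 (adjusted p = 0.0927). Without sufficient lymphoma 6 the edgeR value was -0.66 (adjusted p = 0.745), and without lymphomas 9, 10 and 11 it was -2.42 (adjusted p = 0.187). Without the 12 libraries over 1 CPM it was -0.89 (adjusted p = 0.852). Lower Cr2 in the deficient group was thus not established by the edgeR test, and the interval also includes a fall of more than 4 on the log2 scale.

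Spread between tumours of 1 group and run was the main feature of Cr2. Its SD of log2 CPM within group and run was 2.89, larger than that of 99.7% of tested genes, whose median was 0.37. High and low libraries occurred in both groups. Among deficient lymphomas, 1, 2, 6 and 10 held 28.2 to 40.0 CPM and lymphoma 11 held 12.0 CPM, while the other 6 held 0.110 to 4.99 CPM. Follicular dendritic cells also carry this receptor. Of the list of stromal and follicular dendritic genes, only Col1a1, Mfge8 and Sparc could be read, which other stromal cells also express. Col1a1 (log2 fold change -4.96, edgeR adjusted p = 0.000151) and Mfge8 (-1.33, edgeR adjusted p = 0.0124) were lower in the deficient group and Sparc did not pass. The part of those cells in the Cr2 level was not tested.

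Cd81, a tetraspanin of the coreceptor, was lower in the deficient group. It averaged 299 CPM ± 61.0 (SD, n = 12) versus 214 CPM ± 63.0 (SD, n = 11), for a log2 fold change of -0.45 ± 0.14 SE (edgeR adjusted p = 0.0280). The Cd81 call was lost when sufficient lymphoma 8, 10 or 12 was left out, with adjusted p-values of 0.0530, 0.0581 and 0.0503.

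Among the membrane regulators, Cr1l was the most even. It encodes Crry, the rodent regulator that both dissociates C3 convertases and serves as a cofactor for cleavage of C3b. Its level ran from 50.5 to 78.8 CPM with a median of 69.5 CPM in sufficient lymphomas, and from 41.0 to 56.7 CPM with a median of 48.7 CPM in deficient ones. Of 12 sufficient libraries, 10 were above every deficient library, 6 deficient libraries were below every sufficient one, and all 11 were below the sufficient median.

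The means of Cr1l were 67.3 CPM ± 9.69 (SD, n = 12) versus 48.9 CPM ± 5.29 (SD, n = 11). The log2 fold change was -0.46 ± 0.09 SE, a fitted level 1.37-fold lower in the deficient group (edgeR adjusted p = 0.00119, 95% interval -0.63 to -0.28). The difference in mean log2 CPM was of the same size in both runs, -0.45 in run 1 (exact permutation p = 0.00758) and -0.44 in run 2 (exact permutation p = 0.0108). Left out in turn, no library moved the value outside -0.49 to -0.42, and without lymphomas 9, 10 and 11 it was -0.52 (adjusted p = 0.00271). Without the 12 libraries over 1 CPM the value was -0.48 and no longer passed (adjusted p = 0.143). That fit called 290 genes, against 2448 with all libraries. Only 10.5% of tested genes varied less between tumours than Cr1l, whose SD of log2 CPM within group and run was 0.20. The difference in Cr1l was thus small but passed the test, beside a neighbour, Cr2, whose larger difference did not.

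Cd55 encodes decay-accelerating factor, a regulator held in the membrane by a glycosylphosphatidylinositol (GPI) anchor that takes C3 convertases apart. Its level ran from 7.45 to 259 CPM with a median of 26.2 CPM in sufficient lymphomas and from 3.11 to 23.8 CPM with a median of 8.66 CPM in deficient ones. The groups overlapped between 7.45 and 23.8 CPM, where 5 sufficient and 7 deficient libraries lay. The other 7 sufficient libraries were above every deficient one, 4 deficient libraries were below every sufficient one, and all 11 deficient libraries were below the sufficient median.

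Means of Cd55 were 59.5 CPM ± 70.8 (SD, n = 12) versus 10.6 CPM ± 7.197 (SD, n = 11). The log2 fold change was -2.52 ± 0.45 SE, a fitted level 5.74-fold lower in the deficient group (edgeR adjusted p = 0.000950, 95% interval -3.47 to -1.57). It was the only one of the 6 genes that also differed between runs with group adjusted, higher in run 2 by 1.497 ± 0.43 SE on the log2 scale (edgeR adjusted p = 0.00900, in a comparison that called 36.3% of all genes). Within each run the deficient group was lower, by a mean log2 CPM difference of -1.85 in run 1 (exact permutation p = 0.0101) and -2.68 in run 2, where no libraries overlapped (exact permutation p = 0.00216, the smallest that 462 arrangements allow). In run 2 the sufficient libraries held 259, 65.6, 103, 25.9 and 54.7 CPM (lymphomas 8 to 12), and the highest of the 6 deficient libraries held 23.8 CPM. The call held in all 23 fits that left out 1 library (-2.68 to -2.17) and without lymphomas 9, 10 and 11 (-2.67, adjusted p = 0.00272). It was lost without the 12 libraries over 1 CPM, where the log2 fold change was -1.60 (adjusted p = 0.0678) and 290 genes were called against 2448.

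Cd59a encodes CD59, a GPI-anchored protein that stops the membrane attack complex from completing its pore. It ran from 0.911 to 52.5 CPM with a median of 8.29 CPM in sufficient lymphomas and from 0 to 2.48 CPM with a median of 1.06 CPM in deficient ones. Of the deficient libraries, 3 held 3 counts or fewer, among them lymphoma 6 with none. In the sufficient group, 8 of 12 libraries were above every deficient one, and the highest were lymphomas 8, 12, 6 and 10 at 52.5, 39.2, 33.8 and 23.4 CPM. These are the same 4 sufficient lymphomas that held the most Cr2.

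Means of Cd59a were 15.7 CPM ± 17.7 (SD, n = 12) versus 1.06 CPM ± 0.863 (SD, n = 11). The log2 fold change was -3.79 ± 0.83 SE, a fitted level 13.8-fold lower (edgeR adjusted p = 0.00336, 95% interval -5.53 to -2.06). In run 1 the difference in mean log2 CPM was -2.16 (exact permutation p = 0.0694) and in run 2 it was -4.40 (exact permutation p = 0.00649). A test of the interaction of group and run did not pass for any of the 6 genes, and it called 0 of all tested genes (edgeR, 723 at an unadjusted p under 0.05, no other tool run). Cd59a kept its call in all 23 fits that left out 1 library (-4.04 to -3.45) and without lymphomas 9, 10 and 11 (-3.97, adjusted p = 0.00603). It lost the call without the 12 libraries over 1 CPM (-4.36, adjusted p = 0.0543), in a fit that called 290 genes against 2448. All sufficient libraries but lymphoma 5 held over 1 CPM of Cd59a, while deficient lymphomas 3, 4, 5, 6 and 11 did not. The gene thus came to be listed mainly through sufficient libraries, and its kept calls are no independent support.

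Susd4 encodes a membrane protein with sushi domains, the fold shared by complement regulators, and it moved opposite to the other 3 membrane regulators. It was at 0 in 8 of 12 sufficient libraries, and the other 4, lymphomas 5, 6, 9 and 10, held 0.248, 1.14, 1.80 and 0.232 CPM. In deficient lymphomas it ran from 0.146 to 55.3 CPM with a median of 7.86 CPM, and no library was at 0. Deficient libraries were also deeper, with a median total of 21.6 M counts versus 14.5 M. Deficient lymphomas 7 and 9 held only 4 Susd4 counts each. Of the 11 deficient libraries, 8 were above every sufficient library, and the 3 others (lymphomas 7, 8 and 9, all from run 1) held 0.170, 1.24 and 0.146 CPM. The highest value belonged to deficient lymphoma 6, in which no Cd59a read was counted.

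Summed over libraries, Susd4 had 45 counts of 189 M in the sufficient and 2660 counts of 227 M in the deficient group. Means were 0.285 CPM ± 0.579 (SD, n = 12) versus 11.3 CPM ± 15.7 (SD, n = 11). The fitted log2 fold change was 4.81 ± 1.06 SE (edgeR adjusted p = 0.00339), whose size depends on the prior count because most sufficient libraries are at 0. In run 2 every deficient library, from 2.40 CPM up, exceeded every sufficient one (exact permutation p = 0.00216). In run 1 the difference in mean log2 CPM was 2.80 (exact permutation p = 0.0303), with deficient lymphoma 10 the highest at 13.6 CPM. The gene kept its call in the 21 fits without 1 library in which it passed the filter (4.11 to 5.01) and without lymphomas 9, 10 and 11 (5.17, adjusted p = 0.0158). Without the 12 libraries over 1 CPM the fitted value was 10.58 (adjusted p = 0.0442). The sufficient libraries left in that fit, lymphomas 1, 2, 3 and 12, all held 0 Susd4 counts, so the size of this value has no meaning. Susd4 did not pass the filter when sufficient lymphoma 6 or 9 was left out. Among sufficient libraries only these held over 1 CPM, so the gene came to be listed mainly through deficient libraries. Its kept calls are therefore no independent support.

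**Figure D2:**
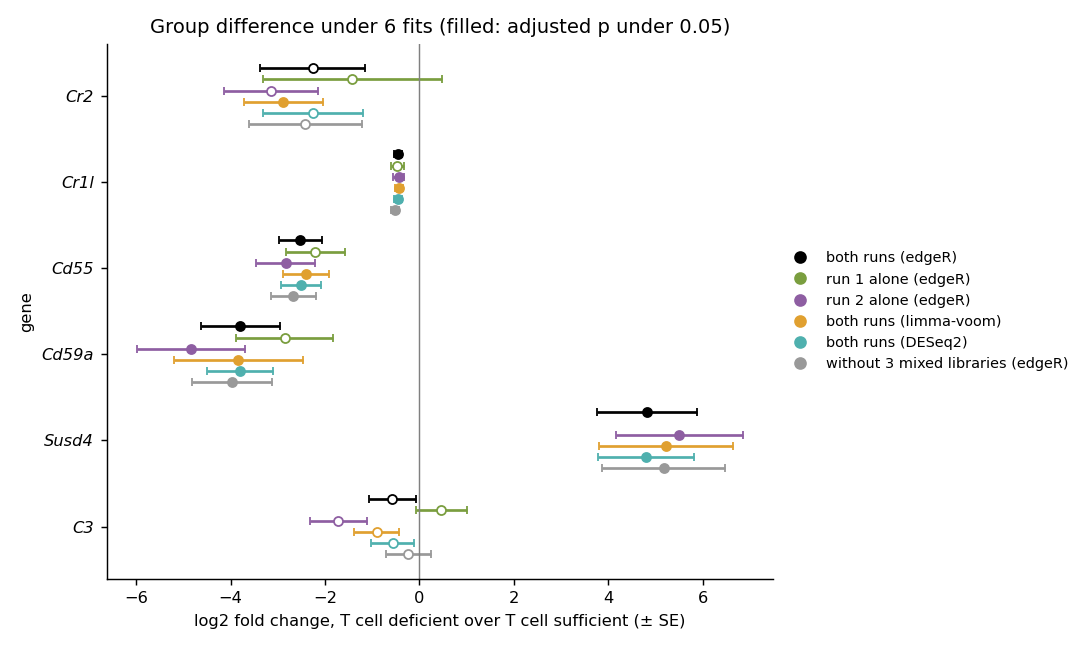
Log2 fold change of T cell deficient over sufficient lymphomas for each gene, ± SE, under 6 fits (filled points, adjusted p under 0.05; gray, without T cell sufficient lymphomas 9, 10 and 11). Cr1l, Cd55 and Cd59a stay below 0 and Susd4 above 0 in each fit shown (it has none in run 1), Cr2 is called by limma-voom only, and C3 lies on different sides of 0 in run 1 and run 2.

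C3, the component whose fragments the receptor binds and some of the regulators act on, was expressed in every library. It ran from 22.1 to 314 CPM (median 62.4) in sufficient lymphomas, of which lymphoma 11 was the highest, and from 11.0 to 124 CPM (median 32.2) in deficient ones. The groups overlapped widely: 5 deficient libraries were below every sufficient one, and 2 sufficient libraries were above every deficient one. Means were 83.5 CPM ± 78.8 (SD, n = 12) versus 52.1 CPM ± 41.7 (SD, n = 11), which was not called (log2 fold change -0.57 ± 0.49 SE, edgeR adjusted p = 0.415, 95% interval -1.59 to 0.45).

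The runs disagreed on C3. In run 1 the sufficient libraries averaged 47.5 CPM ± 24.7 (SD, n = 7) and the deficient ones 65.8 CPM ± 50.1 (SD, n = 5), and in run 2 they were 134 CPM ± 103 (SD, n = 5) versus 40.7 CPM ± 33.5 (SD, n = 6). The difference in mean log2 CPM was 0.09 in run 1 (exact permutation p = 0.893) and -1.86 in run 2 (exact permutation p = 0.0303). The interaction was -2.19 ± 0.85 SE on the log2 scale, with an unadjusted p of 0.0173 and an edgeR adjusted p of 0.757, so a difference between runs was not established. Without lymphomas 9, 10 and 11 the value over both runs was -0.24 (adjusted p = 0.781).

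Macrophages are a known source of C3, so the summed level of their markers is given beside it. Sufficient lymphoma 11 held both the most C3 (314 CPM) and the largest sum of the 14 macrophage markers (2144 CPM), and the deficient lymphomas 4, 5 and 6, with sums of 103, 135 and 88.1 CPM, were among the 5 deficient libraries lowest in C3. Of the 14 markers, 2 (Lyz2 and Itgam) were called lower and none was called higher in the deficient group by edgeR, a share near the 11.7% of all genes called lower, and their median log2 fold change was -0.98. The markers were not proportional to C3 in every library: deficient lymphoma 7 had a sum of 443 CPM, the highest of its group, with 11.0 CPM of C3, its group's lowest. The part of these cells in the C3 level was not tested.

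**Figure D3:**
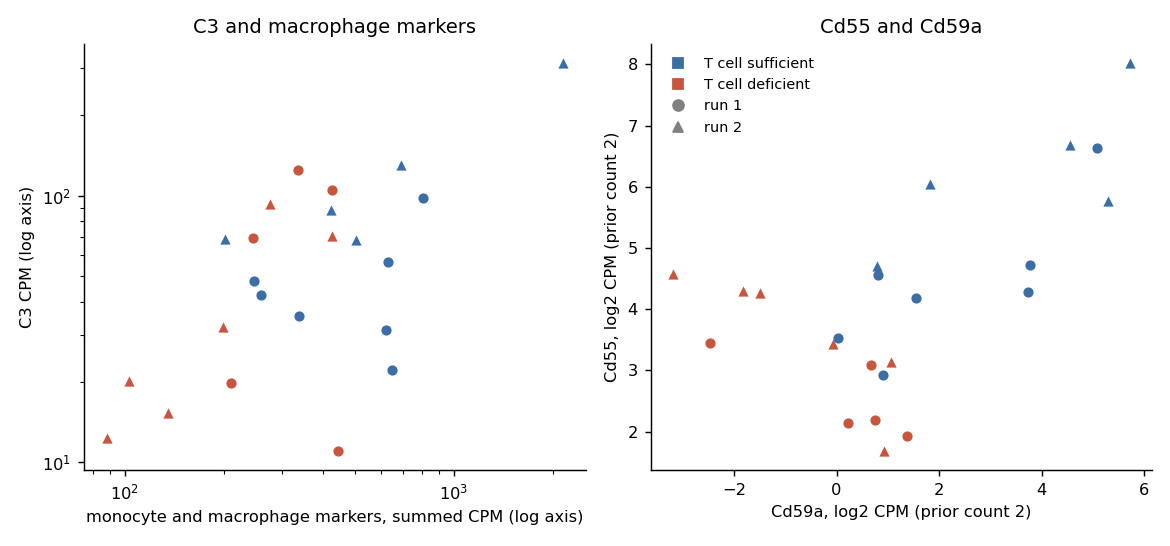
Left, C3 against the summed CPM of 14 monocyte and macrophage markers, both on log axes; right, Cd55 against Cd59a in log2 CPM with a prior count of 2 (blue, T cell sufficient; red, T cell deficient; circles, run 1; triangles, run 2). Sufficient lymphoma 11 is at the top right of the left plot, and in the right plot Cd55 is higher with more Cd59a among sufficient lymphomas and lower with more Cd59a among deficient ones.

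Per length of transcript, C3 was the most abundant of the 6 genes in both groups, at 16.2 CPM per kb of exon in sufficient and 10.1 in deficient lymphomas (means). In sufficient lymphomas Cd55 followed at 12.3 CPM per kb, Cr2 at 9.95, Cd59a at 8.64, Cr1l at 6.51 and Susd4 at 0.0740. By medians over these 12 libraries the order was C3 at 12.1, Cr1l at 6.72, Cd55 at 5.39, Cd59a at 4.58, Cr2 at 1.47 and Susd4 at 0 CPM per kb. Neighbours between Cd55 and Cr1l in the order of means do not differ beyond their spread, since the SD of Cd55, Cr2 and Cd59a exceeded their means. In deficient lymphomas the means were 10.1 for C3, 4.72 for Cr1l, 2.92 for Susd4, 2.18 for Cd55, 1.70 for Cr2 and 0.588 CPM per kb for Cd59a. Crry was thus the most abundant membrane regulator transcript there, and Susd4, at the bottom in sufficient lymphomas, stood above Cd55, although its SD of 4.08 CPM per kb exceeded its mean. With the mean transcript length in place of the union of exons, Cr1l moved to 39.8 CPM per kb in sufficient lymphomas, behind C3 at 50.1 and next to Cr2 at 39.1.

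Whether the 6 genes vary together from tumour to tumour was examined within each group after removing run means, over 30 relations (15 pairs in each group). Cd55 and Cd59a were the pair with the smallest p-value in both groups. Among 12 sufficient lymphomas Pearson's r was 0.77 (permutation p = 0.00381, adjusted p = 0.0571) and Spearman's rho 0.71 (permutation p = 0.0208, adjusted p = 0.125). Among 11 deficient lymphomas r was -0.82 (permutation p = 0.00217, adjusted p = 0.0571) and rho was -0.90 (permutation p = 0.00089, adjusted p = 0.0267). Without the 2 lymphomas farthest from the Cd55 median r was 0.62 and -0.82. Only the rho in deficient lymphomas passed after adjustment, the difference between the groups was not tested, and Cd59a in deficient lymphomas rested on 0 to 68 counts.

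In deficient lymphomas Cr2 and Susd4 tended to be high in the same tumours, with r of 0.81 (permutation p = 0.0118, adjusted p = 0.118) and rho of 0.79 (permutation p = 0.0185, adjusted p = 0.125), and r was 0.67 without the 2 farthest. Lymphomas 1, 2, 6 and 10 held the most Cr2, and of these 6 and 10 were also among the 3 highest in Susd4. In sufficient lymphomas Cr2 with Cd59a gave r of 0.58 (permutation p = 0.0485, adjusted p = 0.190) and rho of 0.52 (permutation p = 0.0857, adjusted p = 0.282). Without the 2 lymphomas farthest from the Cr2 median, that r was 0.77. None of these relations passed after adjustment.

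For each member the 3 genes with the most similar log2 CPM, after removing the means of each group and run, were taken from 10350 genes over 23 libraries, as a description. Those of Cd59a included Glipr2 (Pearson's r 0.89) and Zfp64 (0.77). Glipr2 averaged 21.3 CPM ± 22.3 (SD, n = 12) versus 1.67 CPM ± 1.74 (SD, n = 11), for a log2 fold change of -3.64 (edgeR adjusted p = 0.000851).

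The genes most like Cd55 were Cept1 (r 0.83), an enzyme of phospholipid synthesis, Arl5c (0.81) and Cers4 (0.80), a ceramide synthase, of which Cept1 was called lower in the deficient group. For Cr2 they were Rfx1 (r 0.87), Zfp40 (0.85) and 2310003H01Rik (0.83), for Cr1l Ppp6r1 (0.81), Zfp386 (0.78) and Rabep2 (0.75), and for Susd4 Adnp (0.83), Prdm15 (0.83) and Fam20b (0.82), and none of these 9 genes was called. For C3 they were Pla2g2d (r 0.79), Lyz2 (0.78), the lysozyme of myeloid cells, and Mmp14 (0.78). Lyz2 averaged 153 CPM ± 168 (SD, n = 12) versus 38.5 CPM ± 32.9 (SD, n = 11), for a log2 fold change of -1.89 (edgeR adjusted p = 0.0210). The rankings changed with the libraries used: within the deficient group alone none of the 18 genes stayed among the 3 most similar, and within the sufficient group 1 each did for Cr2 and Cd59a.

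Across the pathway, 25 of 59 complement genes listed had a row and were tested, of which 1 was higher (Susd4), 7 were lower and 17 did not pass, beside 22.2% of all genes called, 10.6% as higher and 11.7% as lower. The median log2 fold change of the 25 genes was -0.94, beside -0.01 over all genes tested, and 21 of them were negative. Without the 6 members, 19 genes were left, with 0 higher and 4 lower by edgeR. Of all genes, 10.6% were called higher and 11.7% lower. Of the 19 genes, 16 were negative, and their median was the same as that of the 25. The count was also 1 higher and 7 lower without lymphomas 9, 10 and 11, and 1 higher and 8 lower with DESeq2 and with limma-voom, which called 28.1% and 22.7% of all genes. A gene passed the filter of the table through libraries where it was high, so the 25 genes are not all complement genes.

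Among the other receptors, both chains of complement receptor 3 were lower in the deficient group. Itgam, the alpha chain, averaged 58.7 CPM ± 101 (SD, n = 12) versus 10.04 CPM ± 19.3 (SD, n = 11), for a log2 fold change of -2.58 ± 0.75 SE (edgeR adjusted p = 0.0173), and it lost the call without sufficient lymphoma 1 (-1.85, adjusted p = 0.0622). Itgb2, the beta chain that other leukocyte integrins share, averaged 266 CPM ± 115 (SD, n = 12) versus 133 CPM ± 24.2 (SD, n = 11), for a log2 fold change of -0.99 ± 0.21 SE (edgeR adjusted p = 0.00246). Itgam is also 1 of the macrophage markers given above, and their part in its level was not tested. The C5a receptor C5ar2, Itgax, Cd93, C1qbp and Lrp1 did not pass.

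Of soluble regulators, Clu, which encodes clusterin, a fluid-phase inhibitor of the membrane attack complex, was lower at 1.01 CPM ± 0.765 (SD, n = 11) versus 3.72 CPM ± 2.62 (SD, n = 12), for a log2 fold change of -1.93 ± 0.56 SE (edgeR adjusted p = 0.0171). Cfp, properdin, which stabilises the alternative pathway convertase, did not pass (-0.75 ± 0.48 SE). Cfb, factor B, which supplies the protease of that convertase, was lower at 22.1 CPM ± 13.3 (SD, n = 11) versus 59.9 CPM ± 50.4 (SD, n = 12), for a log2 fold change of -1.42 ± 0.37 SE (edgeR adjusted p = 0.0104). Within run 2 alone both were called, Clu at -3.45 (adjusted p = 0.0131) and Cfb at -2.00 (adjusted p = 0.0483), in a fit that called 12.3% of genes, 6.61% as lower and 5.69% as higher. Within run 1 alone, a fit that called 0 of 11064 genes, neither passed, with Clu at -0.61 (adjusted p = 0.610) and Cfb at -0.87 (adjusted p = 0.280).

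None of the 6 genes of the classical and lectin pathways passed by edgeR, with log2 fold changes from -1.77 to -0.21, and none of the 3 terminal genes (C6, C8a and C8g). The 3 chains of C1q, which macrophages make, had like values: C1qa -1.01 ± 0.53 SE, C1qb -0.94 ± 0.58 and C1qc -0.98 ± 0.57. All 3 are in the macrophage list. Without lymphomas 9, 10 and 11, of which lymphoma 11 had the largest macrophage sum, they were -0.15, 0.04 and 0.11. C4b, the mouse C4 component, stood at -1.77 ± 0.77 SE (edgeR adjusted p = 0.0991) and passed with DESeq2 (adjusted p = 0.0276) and without deficient lymphoma 7 (adjusted p = 0.0262). C2, which supplies the protease of the classical convertase, passed only without deficient lymphoma 8 (-1.07, adjusted p = 0.0406), against -0.21 with all libraries.

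**Figure D4:**
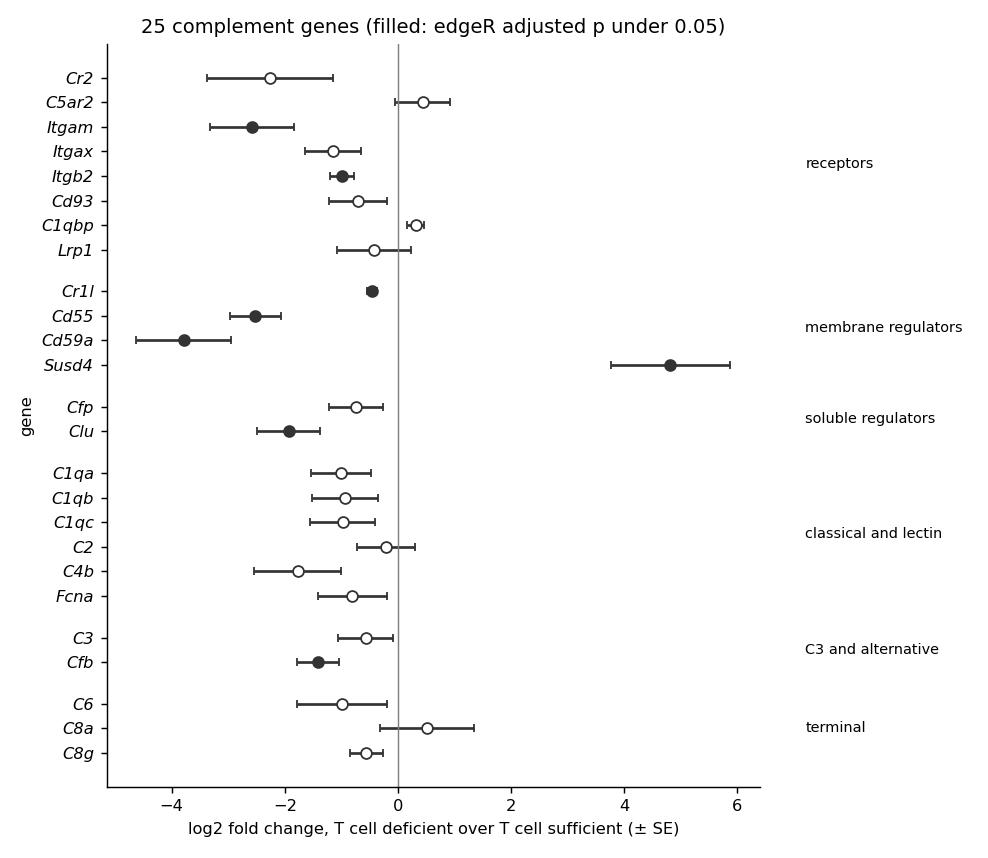
Log2 fold change (± SE) of T cell deficient over sufficient lymphomas for the 25 complement genes tested, by role (filled points, edgeR adjusted p under 0.05). Most points lie left of 0, 7 filled points are lower, and Susd4 is the 1 filled point to the right.

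Because CD55 and CD59 both need a GPI anchor, the 28 genes of anchor synthesis and transfer on the list were also read. All 28 were tested, of which 1 was higher, 2 were lower and 25 did not pass, with a median log2 fold change of -0.15. Piga, which acts in the first step of the pathway, was higher at 21.3 CPM ± 5.14 (SD, n = 11) versus 15.2 CPM ± 3.80 (SD, n = 12), for a log2 fold change of 0.50 ± 0.15 SE (edgeR adjusted p = 0.0209). Pigs, a subunit of the transamidase that attaches the anchor, was lower (-0.35 ± 0.09 SE, edgeR adjusted p = 0.00851), as was Dpm3, a subunit of the enzyme that supplies its mannose donor (-0.55 ± 0.15 SE, edgeR adjusted p = 0.0141). Without lymphomas 9, 10 and 11, Piga no longer passed and the 2 lower calls remained in number. The share called, 3 of 28, was below the 22.2% of all genes.

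On the chromosome, the tested genes with a start within 250 kb of a member were few except at C3. No such gene was tested beside Cd55. Beside Cd59a, Fbxo3 (log2 fold change 0.09) and Lmo2 (-0.32) did not pass, and beside Susd4, Capn2 (-1.04 ± 0.38 SE) had an edgeR adjusted p of 0.0531. C3 lies among 14 tested genes, of which 3 TNF family ligand genes, Tnfsf9 (2.03), Cd70 (2.16) and Tnfsf14 (2.47), were higher in the deficient group, Gpr108 (-0.57) and Dennd1c (-0.86) were lower, and 9 did not pass (edgeR, beside 10.6% of all genes called higher and 11.7% lower). The C3 start is 34.0 kb from that of Tnfsf14, and C3 itself did not follow these 3 genes.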

How the data were processed

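Per the labels, RNA of purified B lymphoma cells was made into TruSeq libraries. The authors deposited a table of raw counts per gene symbol for 23 libraries, with CPM beside them and with log2 fold changes, p-values and adjusted p-values of their own comparison. Per the submitters' processing notes, mm10, GRCm38 and limma were used; no source used here names the aligner, the counting tool, its annotation or its use of strand. The file lists only genes above 1 CPM in 7 or more libraries. The repeat library of T cell sufficient lymphoma 1 was not analysed here, and whether that lymphoma's column holds 1 or both of its libraries is not stated.

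The deposited counts went into edgeR 4.0.16 under R 4.3.3: filterByExpr (120 genes removed, 11020 tested), TMM scaling and a robust quasi-likelihood fit with run and group, over all genes, at a Benjamini-Hochberg adjusted p under 0.05. The SE is the log2 fold change over the square root of F, and 95% intervals use it with 20 residual degrees of freedom. Log2 CPM use a prior count of 2. The 6 genes and all lists were chosen with earlier results of these data known. Genes named beside the 6 are list members that passed, the 3 most similar genes per member and tested neighbours within 250 kb; some genes that this rule takes are left out of the text. Alternatives were other scalings, filters, DESeq2 1.42.0, limma-voom (limma 3.58.1), no run term, single runs, a replicate block and libraries left out; the 20 CPM limit on Xist and Y-linked transcripts was chosen after seeing the data. The code was tested on simulated counts. No 2 libraries were alike within sampling noise (chi-square per degree of freedom at least 31.0 within groups). Replicate numbers do not pair the samples: over 11 same-numbered pairs, the correlation of deviations from the means of each group and run was -0.25 to 0.23. The CPM of 3 counts covers counting error only.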

Additional observations from a re-analysis of the deposited data

How the results depend on the processing

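Of the values recomputed for the comparisons under alternatives, 257 kept their direction and side of the threshold, or stayed within 1.5 times for counts, while 5 counts moved, 6 values lost the threshold, 1 gained it and 1 reversed. Of the descriptive values (levels per length and most similar genes), 24 moved and 6 did not. Genes called numbered 2448, and 1945 to 2783 with 1 library left out, 1359 in run 2 alone, 1470 without the 3 libraries with Xist and Y-linked transcripts over 20 CPM, 290 without the 12 such libraries (8 sufficient, 4 deficient) over 1 CPM, and 0 in run 1 alone (edgeR, 1832 at an unadjusted p under 0.05, no other tool run). The cause of these changes in number was not tested. Without TMM scaling 1608 genes were higher and 1027 lower, against 1163 and 1285, and the median of all genes moved to 0.06, while Cr1l, Cd55, Cd59a and Susd4 kept their calls.

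In run 1 alone, where 0 genes were called, Cr1l (-0.47), Cd55 (-2.20) and Cd59a (-2.86) no longer passed. Susd4 did not pass the filter there and C3 turned to 0.46 (adjusted p = 0.703). Without the 12 libraries over 1 CPM, Cr1l (-0.48), Cd55 (-1.60) and Cd59a (-4.36) no longer passed, with adjusted p-values of 0.143, 0.0678 and 0.0543. In that fit Susd4 moved from 4.81 to 10.58 (adjusted p = 0.0442), with 0 counts in every sufficient library left. Cr2 passed with limma-voom (-2.88), and the cause was not tested. Called GPI anchor genes that were higher fell from 1 to 0 without the 3 libraries over 20 CPM.

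With the replicate number as a block, 1832 genes were called, Cr1l (-0.44), Cd55 (-2.32), Cd59a (-3.13) and Susd4 (5.71) passed, and Cr2 (-0.70) and C3 (-0.64) did not. The block ended the calls of Cfb (adjusted p = 0.0995), Cd81 (adjusted p = 0.0518) and Dpm3 (adjusted p = 0.0504). With 1 library left out, log2 fold changes ran from -2.96 to -0.66 for Cr2, -0.49 to -0.42 for Cr1l, -2.68 to -2.17 for Cd55, -4.04 to -3.45 for Cd59a, 4.11 to 5.01 for Susd4 and -0.80 to -0.25 for C3. Depth limits Cd59a in deficient and Susd4 in sufficient lymphomas, where 3 and 9 libraries held 3 counts or fewer.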
